A study of Homo sapiens with 2 samples.

Results

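The 9 genes described here encode sensors of double-stranded RNA and DNA and the proteins that pass their signal on, namely *IFIH1*, *DDX58*, *DHX58*, *TLR3*, *EIF2AK2*, *ADAR*, *MAVS*, *IRF3*, and *TMEM173*. They were chosen by name, with no threshold on their values but with earlier results of these data known, from the 33538 genes listed, and each name was present once in both libraries. The cells were HCT116, a human colon cancer cell line, either mock-treated or treated with decitabine (DAC), a cytidine analog that depletes DNA methyltransferases and thereby demethylates dividing cells. Exposure to 0.5 μM of DAC began on day 1, with a repeat dose on day 3, and ended with a medium change on day 5, so that the RNA is from day 7, after withdrawal of the drug. From each culture, 1 library of single cells was prepared, in which each RNA molecule was counted by a unique molecular identifier (UMI) read near its 3′ end. There were 1783 mock-treated cells with 49911689 UMIs in all and 1751 DAC-treated cells with 59046165 UMIs. With 1 library per condition, DAC and any other difference between the cultures or library preparations cannot be told apart, and no test was made between them. Cells of 1 library are not replicates, so intervals are exact 95% confidence intervals that cover counting error only. Of the 5 epithelial markers, *KRT18* had a UMI in 94.8% of mock-treated and 98.7% of DAC-treated cells, and *EPCAM* in 85.7% and 77.1%. The leukocyte gene *PTPRC* had 0 UMIs in the mock-treated and 16 in the DAC-treated library, and the endothelial gene *PECAM1* had 0 and 46. Of the fibroblast genes, *COL1A1* had 533 and 1112 UMIs and *COL3A1* had 5 and 5.

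RIG-I (encoded by *DDX58*) and MDA5 (*IFIH1*) are cytosolic helicases that bind viral or endogenous double-stranded RNA and signal through the mitochondrial adaptor MAVS, and LGP2 (*DHX58*) is a related helicase without the signaling domains. TLR3 detects double-stranded RNA in endosomes, whereas STING (*TMEM173*) is the adaptor of the DNA sensor cGAS. These routes converge on kinases that activate the transcription factor IRF3 and thereby interferon genes, and interferon in turn raises the transcription of several of the sensors. PKR (*EIF2AK2*) halts translation when it binds double-stranded RNA, and ADAR edits adenosines in double-stranded RNA so that it is sensed less. Transcripts of endogenous retroviruses are a known source of double-stranded RNA in cells treated with demethylating drugs.

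Because several of these genes are interferon-stimulated, the sequences around their start sites were searched for the core of the interferon-stimulated response element (GAAA, any 2 bases, and GAAA again, on either strand), which is bound by interferon regulatory factors. RefSeq windows of 300 bases on GRCh38.p14, from 250 bases before to 50 bases after a start, were used for 6 of the 9 genes, and those of *DHX58*, *TMEM173*, and *IRF3* were not analysed here. A match was present in the windows of *IFIH1*, *EIF2AK2*, and *TLR3*, and in 3.57% of all 35116 windows. *IFIH1* had 3 matches, beginning 159, 153, and 21 bases before the start, the first and second of which overlap. *EIF2AK2* had 1 match beginning 6 bases before the start, and *TLR3* had 1 match beginning 4 bases before it. Neither *DDX58*, *MAVS*, nor any of the 3 start sites of *ADAR* had these letters in its window. Only exact matches were searched for, so looser forms of the element may be present there. The windows of *IFIH1*, *EIF2AK2*, *TLR3*, and *DDX58* held 12, 30, 5, and 27 CpG sites, against a median of 14 over all windows. The 4 sequences below run 5′ to 3′ from 170 bases before to 10 bases after the start. These 4 are shown because *IFIH1*, *EIF2AK2*, and *TLR3* hold an exact match while *DDX58*, whose ratio between libraries was close to that of *IFIH1*, does not. They lie at chr2:162318675-162318854, chr2:37156971-37157150, and chr9:32526187-32526366 on the minus strand and at chr4:186068986-186069165 on the plus strand, and capitals mark matches of the core element.
*IFIH1*: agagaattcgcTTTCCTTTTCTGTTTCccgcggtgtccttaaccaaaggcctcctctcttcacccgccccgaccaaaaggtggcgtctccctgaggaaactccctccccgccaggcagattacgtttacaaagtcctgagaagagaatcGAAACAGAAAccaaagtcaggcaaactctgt
*EIF2AK2*: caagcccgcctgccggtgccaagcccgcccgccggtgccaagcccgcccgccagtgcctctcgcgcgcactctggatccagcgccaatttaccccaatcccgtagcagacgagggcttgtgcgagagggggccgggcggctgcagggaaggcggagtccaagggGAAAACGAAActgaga
*TLR3*: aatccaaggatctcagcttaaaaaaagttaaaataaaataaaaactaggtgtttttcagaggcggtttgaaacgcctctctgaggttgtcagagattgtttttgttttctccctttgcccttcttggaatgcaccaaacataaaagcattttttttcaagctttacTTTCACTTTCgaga
*DDX58*: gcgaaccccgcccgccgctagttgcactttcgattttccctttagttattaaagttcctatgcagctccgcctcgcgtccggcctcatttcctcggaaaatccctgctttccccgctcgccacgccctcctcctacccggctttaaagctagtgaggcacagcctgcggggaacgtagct

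The UMIs of a gene were summed over all cells of a library and scaled to a library total of 1000000 (CPM). In DAC-treated cells, all 3 RIG-I-like receptors and PKR were at least 1.5-fold higher than in mock-treated cells, STING was at least 1.5-fold lower, and MAVS, IRF3, and ADAR lay between these limits. TLR3 had fewer than the 100 UMIs that were required in the library with the higher CPM for this count. Of the 8 genes with enough UMIs, 4 were therefore higher and 1 was lower. Over the 12815 genes with as many UMIs, 31.3% were at least 1.5-fold higher and 13.7% at least 1.5-fold lower in DAC-treated cells. The median log2 CPM ratio was 0.84 over the 9 genes and 0.23 over all genes with enough UMIs that were present in both libraries. When that general shift was removed by median-of-ratios scaling, the same 5 genes passed the limits, and 21.5% of all genes were higher and 21.0% lower.

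**Figure D1:**
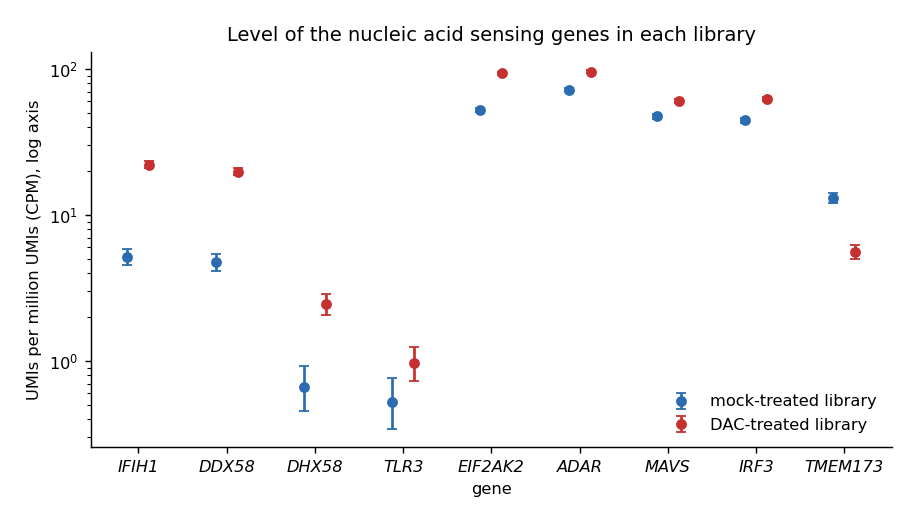
Level of each sensing gene in CPM (log axis) in the mock-treated library (blue) and the DAC-treated library (red), with bars for the exact 95% confidence interval of the UMI count. All genes but *TMEM173* sat higher in the DAC-treated library, with *ADAR* the highest gene in both (72.0 and 96.1 CPM).

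Among the RIG-I-like receptors, *IFIH1* (ENSG00000115267, chr2:162267074-162318684 on hg38, minus strand) had 257 UMIs in the mock-treated and 1306 UMIs in the DAC-treated library. These were 5.15 CPM (95% confidence interval 4.54 to 5.82) and 22.1 CPM (20.9 to 23.4), a ratio of 4.30 (3.75 to 4.93). *DDX58* (ENSG00000107201, chr9:32455302-32526208, minus strand, named RIGI in GENCODE release 44) had 237 and 1172 UMIs, or 4.75 and 19.8 CPM, a ratio of 4.18 (3.63 to 4.83). Within each library, MDA5 transcripts were thus counted slightly above RIG-I transcripts. The intervals of both genes overlapped in each library, in the DAC-treated one only from 20.9 to 21.0 CPM. *DHX58* (ENSG00000108771, chr17:42101404-42112714, minus strand), whose product LGP2 modulates the other two, was rare, with 33 UMIs (0.661 CPM, 0.455 to 0.929) and 145 UMIs (2.46 CPM, 2.07 to 2.89). Its ratio was 3.71 (2.53 to 5.60), but it was 0.56 on the log2 scale in place of 1.89 when every cell had the same weight, by averaging per-cell CPM.

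*TLR3* (ENSG00000164342, chr4:186068911-186088073, plus strand) was the least counted of the 9 genes, with 26 UMIs in mock-treated and 57 UMIs in DAC-treated cells. The endosomal receptor was thus at 0.521 CPM (0.340 to 0.763) and 0.965 CPM (0.731 to 1.25), a ratio of 1.85 (1.15 to 3.07). It had a UMI in 1.40% of mock-treated and 2.86% of DAC-treated cells. In DAC-treated cells the endothelial gene *PECAM1* was in 2.51%, and at 5000 UMIs per cell both genes were in 0.290%. *PECAM1* is not a fixed background level, since it had UMIs in the DAC-treated library only, whereas *TLR3* had UMIs in both libraries. Of the enzymes that act on double-stranded RNA, *EIF2AK2* (ENSG00000055332, chr2:37099210-37157522, minus strand) had 2617 UMIs in mock-treated and 5538 UMIs in DAC-treated cells. PKR transcripts were at 52.4 CPM (50.4 to 54.5) and 93.8 CPM (91.3 to 96.3), a ratio of 1.79 (1.71 to 1.87). *ADAR* (ENSG00000160710, chr1:154581695-154628013, minus strand) had 3592 and 5676 UMIs, or 72.0 and 96.1 CPM. Its ratio of 1.34 (1.28 to 1.39) was above the median of all genes by only 0.18 on the log2 scale.

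Among the adaptors and the transcription factor, *MAVS* (ENSG00000088888, chr20:3846799-3876123, plus strand) had 2370 UMIs in mock-treated and 3558 UMIs in DAC-treated cells, or 47.5 and 60.3 CPM. *IRF3* (ENSG00000126456, chr19:49659569-49665875, minus strand) had 2225 and 3681 UMIs, or 44.6 and 62.3 CPM. Their ratios of 1.27 (1.20 to 1.34) and 1.40 (1.33 to 1.47) exceeded the median of all genes by 0.11 and 0.25 on the log2 scale, so that the shared downstream components differed little from genes in general. *TMEM173* (ENSG00000184584, chr5:139475533-139482935, minus strand, named STING1 in GENCODE release 44) was the only one of the 9 genes with fewer UMIs after DAC, with 653 in mock-treated and 331 in DAC-treated cells. STING transcripts were at 13.1 CPM (12.1 to 14.1) and 5.61 CPM (5.02 to 6.24), which is 2.33-fold lower in DAC-treated cells (2.04 to 2.67). No other gene of the files overlaps any of the 9 genes on the same strand in GENCODE release 44, which may not be the annotation that was used for counting.

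**Figure D2:**
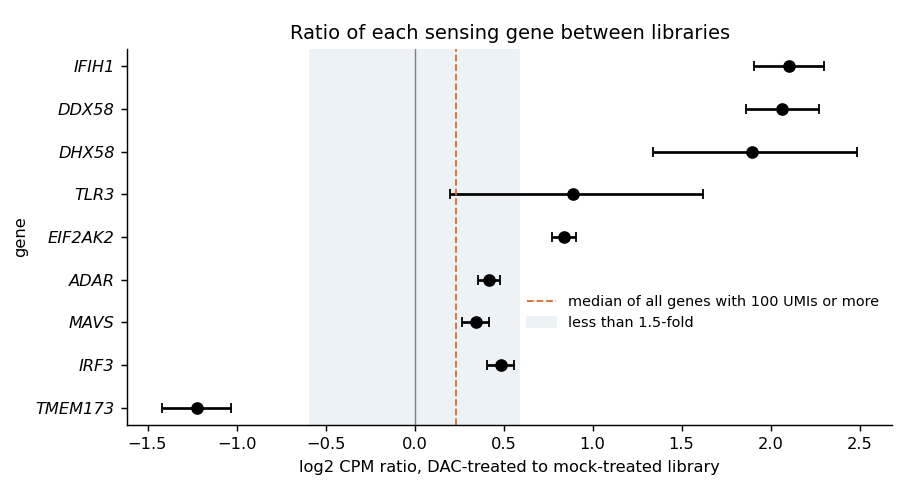
Ratio of the CPM of each sensing gene in the DAC-treated to that in the mock-treated library on the log2 scale, with exact 95% confidence intervals as bars. The dashed line marks the median of all genes (0.23) and the shaded area ratios of less than 1.5-fold. *IFIH1* (2.10), *DDX58* (2.06), and *DHX58* (1.89) lie farthest to the right and *TMEM173* (-1.22) alone to the left of 0.

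Since 1 tag was read per molecule, UMIs were not divided by transcript length, and levels of different genes are compared as CPM. In mock-treated cells, the order was *ADAR*, *EIF2AK2*, *MAVS*, *IRF3*, *TMEM173*, *IFIH1*, *DDX58*, *DHX58*, and *TLR3*. The neighbors *MAVS* and *IRF3*, *IFIH1* and *DDX58*, and *DHX58* and *TLR3* had overlapping intervals. In DAC-treated cells, the order was *ADAR*, *EIF2AK2*, *IRF3*, *MAVS*, *IFIH1*, *DDX58*, *TMEM173*, *DHX58*, and *TLR3*, where *ADAR* and *EIF2AK2*, *IRF3* and *MAVS*, and *IFIH1* and *DDX58* overlapped. The DNA adaptor thus stood above both helicases in mock-treated cells and below both in DAC-treated cells.

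At least 1 UMI of *IFIH1* was present in 220 mock-treated (12.3%, 10.8 to 14%) and 571 DAC-treated cells (32.6%, 30.4 to 34.9%). *DDX58* was present in 194 (10.9%, 9.47 to 12.4%) and 594 cells (33.9%, 31.7 to 36.2%). *TMEM173* went the other way, from 462 (25.9%, 23.9 to 28.0%) to 259 cells (14.8%, 13.2 to 16.5%). *DHX58* had a UMI in 1.85% of mock-treated and 6.91% of DAC-treated cells. The other 4 genes, *ADAR*, *EIF2AK2*, *MAVS*, and *IRF3*, had a UMI in 59.1 to 71.1% of mock-treated cells and in 67.0 to 72.1% of DAC-treated cells. At least 3 UMIs of *IFIH1* were present in 5 mock-treated and 170 DAC-treated cells, and of *DDX58* in 6 and 125 cells. The highest number of UMIs in a cell was 20 for *IFIH1* and 24 for *DDX58* in DAC-treated cells, and 5 and 4 in mock-treated cells. DAC-treated cells held more UMIs, and after every cell was thinned to 5000 UMIs, leaving out 217 mock-treated and 372 DAC-treated cells, *IFIH1* was detected in 1.66% of mock-treated and 9.35% of DAC-treated cells. The thinned shares of *DDX58* were 1.85% and 8.77%, and those of *TMEM173* were 6.58% and 2.47%. Without thinning, 8 of the 9 genes were in a larger share of DAC-treated cells, all but *TMEM173*, although some intervals overlapped. Those of *ADAR* overlapped without thinning but not at 5000 UMIs (31.2% and 38.0%), those of *MAVS* at 5000 UMIs (21.1% and 25.4%) but not at 10000 UMIs (37.3% and 45.9%), and those of *TLR3* at 5000 UMIs (0.255% and 0.290%).

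With an even share of *IFIH1* among the UMIs of all DAC-treated cells, 958.7 cells would lack it, whereas 1180 cells had no UMI of it. In mock-treated cells, the same numbers were 1551 and 1563. For *EIF2AK2* they were 440.7 and 568 in DAC-treated and 615.7 and 697 in mock-treated cells. Cells without a UMI also exceeded an even share for the abundant gene *PCBP2*, with 250.2 and 378 in DAC-treated and 155.1 and 313 in mock-treated cells. An uneven spread as such was thus not particular to the sensors. Unlike *PCBP2*, *IFIH1* was near an even share in mock-treated cells, where it had few UMIs, and departed from it in DAC-treated cells.

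To relate the sensors to the interferon response of the same cell, cells were ranked by the summed UMIs of *IFI6*, *ISG15*, and *IFI27*, which are induced by interferon, over the UMIs of all other genes. The ranking used the 1120 DAC-treated cells (64.0%) and 1298 mock-treated cells (72.8%) with 10000 UMIs or more and 50% mitochondrial UMIs or less. In the quartile of DAC-treated cells with the lowest rank, the median was 528.2 interferon-stimulated UMIs per 1000000 others, and in the highest quartile it was 6071. Sensor UMIs followed this ranking for most of the 9 genes. *IFIH1* was at 5.65, 13.0, 23.6, and 50.9 CPM from the lowest to the highest quartile, a ratio of the highest to the lowest of 9.0 (95% confidence interval 7.09 to 11.6). *DDX58* was at 9.23, 12.9, 19.2, and 40.2 CPM, a ratio of 4.36 (3.58 to 5.34). *DHX58* was at 0.595, 1.39, 2.46, and 5.38 CPM, with a ratio of 9.03 (4.34 to 21.7) that rests on 8 UMIs in the lowest quartile. *IFIH1* and *DDX58* were thus higher at every step of the ranking, whereas the intervals of *DHX58* overlapped between neighbors over the first 3 quartiles.

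*EIF2AK2* was at 49.8, 76.8, 111.5, and 151.4 CPM over the quartiles, with a ratio of 3.04 (2.78 to 3.32), and *ADAR* was at 64.4, 84.0, 104.7, and 130.7 CPM, with a ratio of 2.03 (1.87 to 2.21). *TMEM173* was at 4.09, 4.04, 5.79, and 8.88 CPM, with a ratio of 2.17 (1.56 to 3.05), so that STING transcripts, although lower after DAC, were most frequent in the cells with the strongest interferon signature. *TLR3* had 4 UMIs in the lowest and 27 UMIs in the highest quartile. By contrast, *MAVS* had a ratio of 1.23 (1.11 to 1.36) and *IRF3* of 1.15 (1.04 to 1.27). Of the 8 genes with 100 UMIs or more in these cells, 6 were at least 1.5-fold higher in the highest quartile and 0 were lower. Of all 12285 genes with as many UMIs, 11.1% were at least 1.5-fold higher and 1.62% lower. The quartiles had median depths of 45998, 48832, 47886, and 45442 UMIs per cell, and the median share of mitochondrial UMIs moved from 16.1% in the lowest to 19.1% in the highest quartile, whereas among cells with 20% mitochondrial UMIs or less the ratio was 11.4 for *IFIH1*, 5.21 for *DDX58*, and 2.91 for *EIF2AK2*. In those cells 5 genes passed the limit, since *DHX58* had too few UMIs. When cells were thinned to 10000 UMIs before ranking, the ratio was 5.65 for *IFIH1*, 3.13 for *DDX58*, and 2.90 for *EIF2AK2*, and 4 genes passed the same limit, *IFIH1*, *DDX58*, *ADAR*, and *EIF2AK2*, since *DHX58* and *TMEM173* no longer had 100 UMIs.

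**Figure D3:**
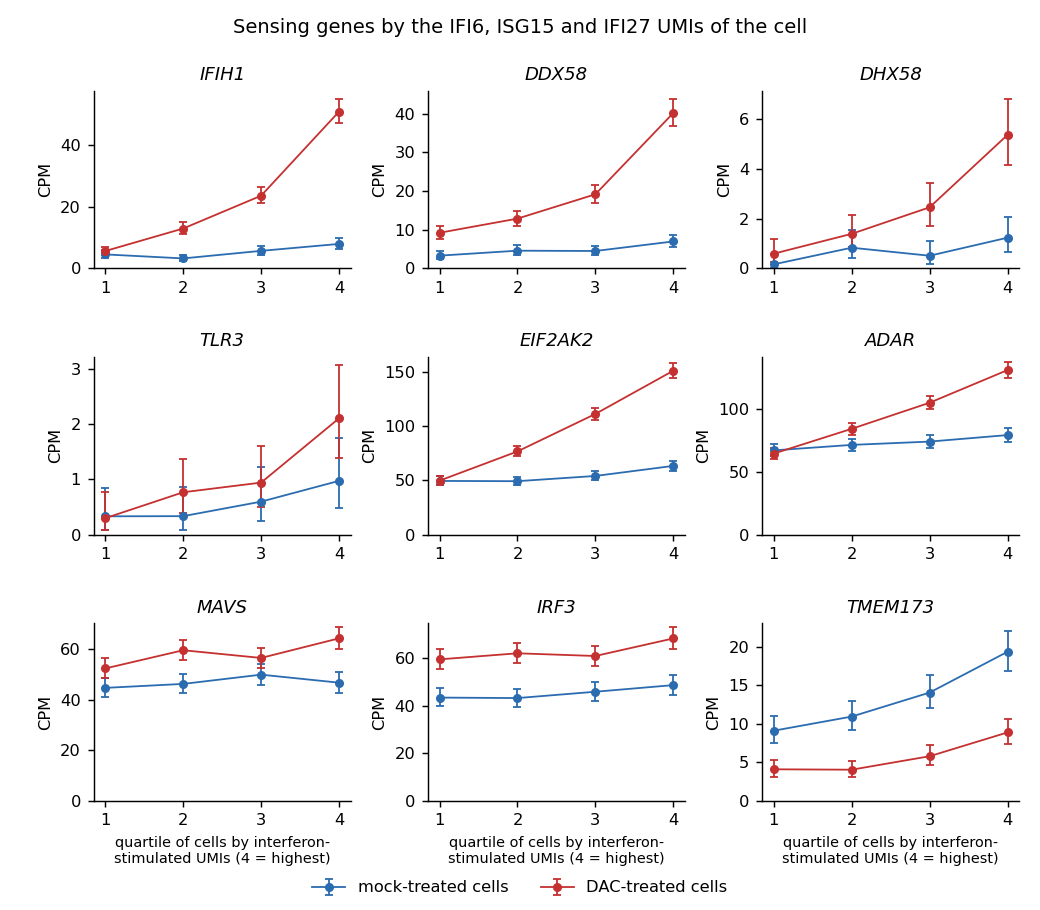
Level of each sensing gene (CPM, axis from 0) in the quartiles of mock-treated (blue) and DAC-treated cells (red) ranked within their library by the UMIs of *IFI6*, *ISG15*, and *IFI27*, from 1 (lowest) to 4 (highest), with exact 95% confidence intervals. *IFIH1* climbs from 5.65 to 50.9 CPM in DAC-treated cells, *MAVS* and *IRF3* stay nearly level, and the red points of *TMEM173* lie below the blue ones in every quartile.

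The quartile of DAC-treated cells with the weakest interferon signature was then set against the mock-treated cells. Because these cells were selected by their interferon-stimulated UMIs, this is a description. *IFIH1* was at 5.65 CPM in this quartile and at 5.33 CPM in mock-treated cells, a ratio of 1.06 (0.810 to 1.38). For *EIF2AK2* the ratio was 0.923 (0.846 to 1.01), for *ADAR* 0.886 (0.821 to 0.955), and for *DHX58* 0.876 (0.349 to 1.94), which was 1.55 with 20% mitochondrial UMIs or less. *MAVS* and *IRF3* had ratios of 1.12 (1.02 to 1.22) and 1.32 (1.21 to 1.43). The higher levels of MDA5 and PKR in the DAC-treated library were therefore not seen in these cells. *DDX58* still had a ratio of 1.91 (1.53 to 2.39), and *TMEM173* had a ratio of 0.308 (0.230 to 0.407). Of all 12045 genes with 100 UMIs or more in these cells together, 26.1% were at least 1.5-fold higher and 18.8% at least 1.5-fold lower in the lowest quartile than in mock-treated cells, and of the 9 genes *DDX58* was higher and *TMEM173* lower, with *TLR3* and *DHX58* below the minimum.

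The ranking was repeated within mock-treated cells, whose quartiles spanned a narrower range, with medians of 81.6 and 457.7 interferon-stimulated UMIs per 1000000 others in the lowest and highest quartile. The summed signature of the highest mock-treated quartile thus lay below that of the lowest DAC-treated quartile, but only through *IFI27*, at 11.3 and 136.6 CPM. *IFI6* was at 58.2 and 60.9 CPM, and *ISG15* was higher in the mock-treated cells, at 461.1 and 340.4 CPM. *IFIH1* was at 4.55 CPM in the lowest and 7.96 CPM in the highest quartile, a ratio of 1.75 (1.24 to 2.49). *DDX58* had a ratio of 2.11 (1.42 to 3.17) and *TMEM173* of 2.13 (1.68 to 2.70), whereas *EIF2AK2* had 1.28 (1.15 to 1.43), *ADAR* 1.18 (1.07 to 1.30), *IRF3* 1.12 (0.993 to 1.27), and *MAVS* 1.05 (0.926 to 1.18). *TMEM173* therefore had ratios of similar size in both libraries, and those of *IFIH1*, *DDX58*, *ADAR*, and *EIF2AK2* in mock-treated cells were below the intervals of the DAC-treated cells, a difference for which no test over replicates could be made. Of the 7 genes with enough UMIs, 3 were at least 1.5-fold higher in the highest mock-treated quartile, and of all 11352 genes with as many 6.99% were higher and 6.64% lower.

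Shares of cells were compared after every cell was thinned to 10000 UMIs, at which depth single genes were sparse. *IFIH1* was detected in 4.85% of mock-treated cells, in 7.14% of the lowest quartile of DAC-treated cells (4.42 to 10.8%), and in 37.9% of the highest quartile (32.2 to 43.8%). *EIF2AK2* was detected in 41.8%, 36.1%, and 73.9% of the same cells, and *DDX58* in 4.47%, 10.0%, and 26.1%. *MAVS* was in 36.9%, 43.6%, and 49.6%, a smaller span than those of *IFIH1* and *EIF2AK2*. A mock-treated cell had a UMI for a mean of 1.92 of the 9 genes, a DAC-treated cell of the lowest quartile for 1.92, and one of the highest quartile for 3.24. The equal means combine opposite differences. *IFIH1*, *DDX58*, *DHX58*, *MAVS*, and *IRF3* were in a larger share of the lowest quartile than of mock-treated cells. The other genes were in a smaller share, among them *TMEM173* (13.1% of mock-treated cells and 5.36% of the lowest quartile). At least 5 of the 9 genes were detected in 18 of 1298 mock-treated cells (1.39%), in 6 of 280 DAC-treated cells of the lowest quartile (2.14%), and in 50 of 280 of the highest quartile (17.9%).

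**Figure D4:**
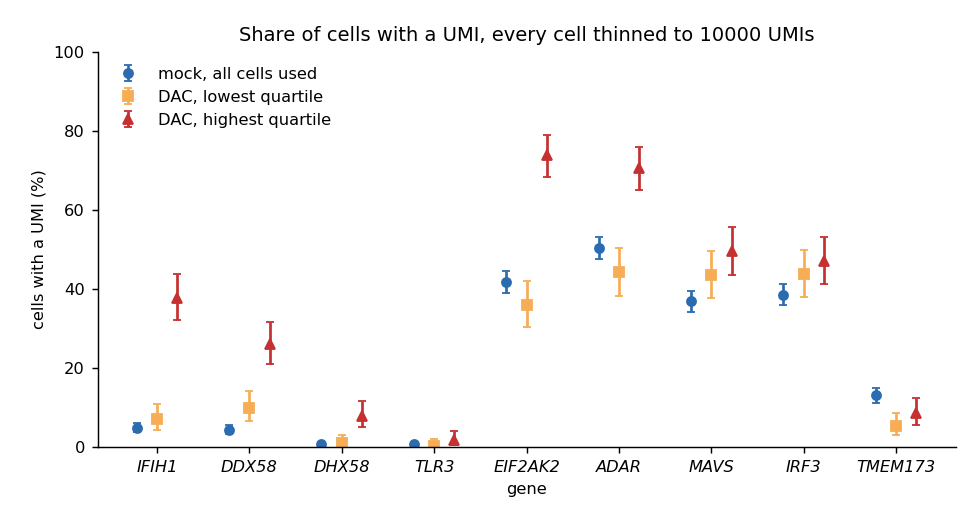
Share of cells with at least 1 UMI of each sensing gene after every cell was thinned to 10000 UMIs, for all mock-treated cells used (blue circles), and for the lowest (orange squares) and the highest quartile (red triangles) of DAC-treated cells by interferon-stimulated UMIs, with exact 95% confidence intervals. For *IFIH1*, the lowest quartile (7.14%) lies near the mock-treated cells (4.85%) and the highest quartile (37.9%) far above both.

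Over the 1120 DAC-treated cells at this depth, the Spearman correlation with the UMIs of *IFI6*, *ISG15*, and *IFI27* was 0.32 for *EIF2AK2*, 0.29 for *IFIH1*, 0.24 for *ADAR*, 0.17 for *DDX58*, and 0.15 for *DHX58*, and between 0.037 and 0.052 for *MAVS*, *IRF3*, *TLR3*, and *TMEM173*. These cells come from 1 library and most have no UMI of a given receptor, so the correlations are given as a description. Those of *TLR3* and *TMEM173* rest on 12 and 69 UMIs. DAC-treated cells with a UMI of *IFIH1* had a median of 38 interferon-stimulated UMIs, and those without had 17. In mock-treated cells the medians were 2 and 2, as for all 9 genes, and 63 of 1298 cells had a UMI of *IFIH1*. At such low counts these medians cannot show a relation. Without thinning, the ratio of *IFIH1* between the highest and lowest mock-treated quartile was 1.75 (1.24 to 2.49). Over the 36 pairs of the 9 genes, the highest correlation was 0.17, between *ADAR* and *EIF2AK2*. Low counts of both genes of a pair lower such values, so their size cannot be compared with that of correlations with the interferon signature. *IFIH1* and *DDX58* were detected together in 51 cells, against 33.1 from the product of their shares. The genes most like the summed UMIs of the RIG-I-like receptors among 8459 genes were *IFI6* (0.30), *ISG15* (0.28), *IFIT1* (0.26), *SP100* (0.24), and *OASL* (0.24), and the median over all these genes was 0.0072.

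Other genes of the sensing pathways were followed in 8 lists by role, with 91 genes, of which 82 had enough UMIs. Of these, 32 (39.0%) exceeded the mock-treated level by 1.5-fold or more and 5 (6.10%) lay as far below it, beside 31.3% and 13.7% of all genes. In the list of RIG-I-like receptor signaling, 8 of 20 genes were higher and 2 lower. *IRF7*, the interferon regulatory factor that amplifies the response, had the highest ratio, with 391 UMIs in mock-treated and 3707 UMIs in DAC-treated cells, a ratio of 8.01 (7.22 to 8.92). *TANK*, a scaffold of the kinase TBK1, had the lowest, 0.587 (0.549 to 0.627), and the RNA-binding protein gene *PCBP2* had the most UMIs, with a ratio of 0.927 (0.909 to 0.945). The oligoadenylate synthetases, which sense double-stranded RNA and activate RNase L, stood out in their list, where 4 of 5 genes were higher. *OAS1* had 16 and 345 UMIs, a ratio of 18.2 (11.1 to 32.2), and *OAS3* 179 and 2962 UMIs, a ratio of 14 (12 to 16.4). *ABCE1*, the inhibitor of RNase L, had the lowest ratio and the most UMIs there, with 1.06 (1.02 to 1.10).

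Of the regulators of PKR and its substrate, 2 of 6 were higher and 1 was lower. *TARBP2*, a binding partner that restrains PKR, had a ratio of 2.07 (1.87 to 2.29), *EIF2S1*, the translation factor that PKR phosphorylates, 1.52 (1.47 to 1.58), and *PPP1R15A*, a phosphatase subunit that reverses this, 0.599 (0.575 to 0.624). Of the RNA editing and helicase genes, 4 of 11 were higher and 0 lower, from *DDX60* at 3.14 (2.59 to 3.82) to *DHX36* at 0.920 (0.882 to 0.960), and *DDX21* had the most UMIs, with 0.989 (0.967 to 1.01). Of the endosomal receptor genes, 3 of 7 were higher and 0 lower, from the adaptor *MYD88* at 2.45 (2.14 to 2.82) to the kinase *IRAK4* at 1.09 (0.928 to 1.28), with the chaperone *HSP90B1* the most counted at 1.10 (1.08 to 1.12). *TLR7*, an endosomal receptor for single-stranded RNA, had 3 UMIs in mock-treated and 1 UMI in DAC-treated cells.

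In the list of cytosolic DNA sensing, 3 of 12 genes were higher and 1 was lower. *CGAS*, the sensor that signals through STING, had 620 UMIs after DAC, in 380 cells (21.7%, 19.8 to 23.7%), and 0 UMIs in the mock-treated library. With the observed 0 set to a floor of 3 counts over the mock-treated library and the count after DAC taken as it is, its CPM was 174.7-fold higher. The exact interval of the ratio, which covers the counting error of both libraries, gave a lower limit of 141.65. The sensor and the adaptor of this route thus differed between the libraries in opposite directions. *ENPP1*, which degrades the second messenger of cGAS, had the lowest ratio of the list, 0.569 (0.460 to 0.701), and *HMGB1*, a DNA-binding protein, the most UMIs, with a ratio of 1.78 (1.75 to 1.80). Of the genes that clear nucleic acids of the cell itself, 3 of 9 were higher and 1 lower, with *SAMHD1* at 3.00 (2.66 to 3.39), the endonuclease gene *DNASE2* at 0.513 (0.471 to 0.559), and *RNASEH2C*, the most counted of them after DAC, at 2.76 (2.58 to 2.96). In interferon signal transduction, 5 of 12 genes were higher and 0 lower, with *USP18*, a negative regulator of the receptor, at 3.36 (2.88 to 3.93), and the kinase *JAK1* lowest at 0.751 (0.714 to 0.790). The interferon genes themselves were almost absent from the counts. *IFNB1* was listed at 0 in both libraries, *IFNL1* had 0 and 14 UMIs, and *IFNE* had 19 and 75 UMIs. *IFNL1* was in 0.685% of DAC-treated cells and *PTPRC* in 0.914%, both from too few UMIs to rank them.

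**Figure D5:**
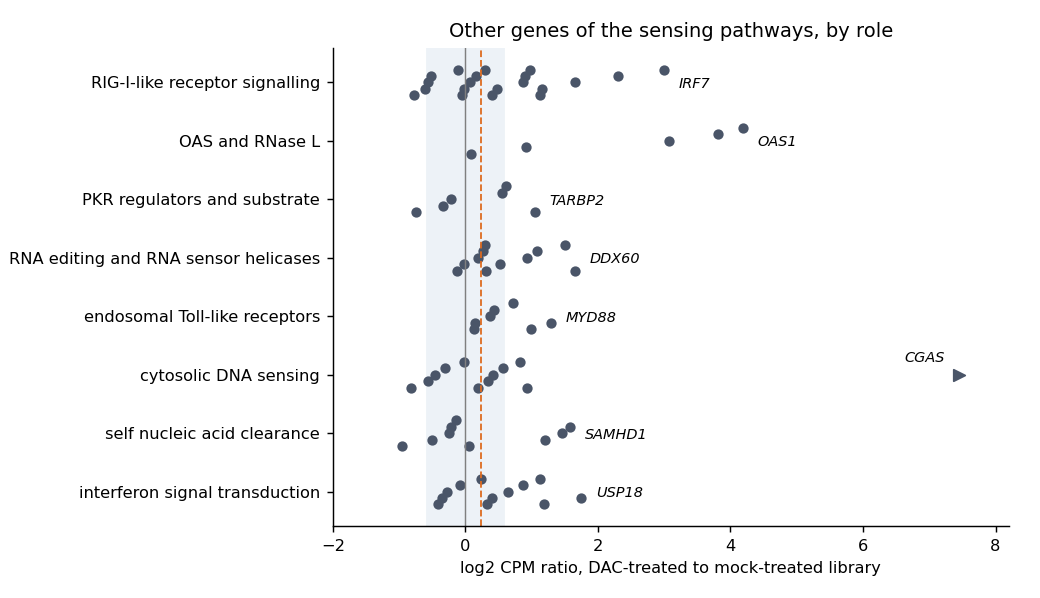
Log2 CPM ratio, DAC-treated to mock-treated library, of the 82 other genes of the sensing pathways with 100 UMIs or more, by role, with 1 point per gene and the highest of each list named. The dashed line is the median of all genes (0.23) and the shaded area less than 1.5-fold. The triangle of *CGAS* is a lower limit, since it had 0 UMIs in mock-treated cells, and the oligoadenylate synthetase genes lie farthest to the right among the others.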

How the data were processed

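The authors mapped reads to hg38 using Cell Ranger 3.0.2 and deposited raw UMI counts per gene and cell, with no filter on cells named. Genes were matched by name and Ensembl identifier, and all cells were used unless stated, including the 311 mock-treated (17.4%) and 319 DAC-treated cells (18.2%) above 50% mitochondrial UMIs. No doublet caller was run on the single cell line. As an alternative, the 5% of cells richest in UMIs were dropped. The libraries shared 12 barcodes. Intervals were Poisson, Clopper-Pearson, and, for ratios, conditional binomial. Only genes with 100 UMIs or more were counted against the 1.5-fold limit. UMIs were thinned without replacement. The members, lists, and rules were chosen with earlier results of these data known. In each role list, the genes with the highest and the lowest ratio and the most UMIs were named, except 1 gene that is not reported here, and *OAS3*, *TLR7*, *IFNB1*, *PCBP2* as an example of uneven counts, and the comparison of the lowest quartile with mock-treated cells were chosen after values were seen. Among interferon genes, *IFNA1*, *IFNA6*, and *IFNL2* had 1 UMI each. Scipy 1.17.1, pandas 2.3.3, and numpy 2.4.6 were run under Python 3.11.15, and the computations were tested on simulated data. Locations are from GENCODE release 44 and promoter sequences from RefSeq.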

Additional observations from a re-analysis of the deposited data

How the results depend on the processing

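The median log2 CPM ratio over the 9 genes, 0.84, was 0.61 without cells over 20% mitochondrial UMIs, 0.60 with median-of-ratios scaling, 0.65 when per-cell CPM were averaged, and 0.44 with every cell thinned to 5000 UMIs. Over all alternatives, 3 to 5 genes passed 1.5-fold upward in the DAC-treated library and *TMEM173* alone was lower. The share of all genes that passed upward ran from 16.4% at 2-fold, with 3 of the 9 genes, to 44.5% with no minimum, with 5. *DHX58* left the count when cells over 20% mitochondrial UMIs were left out or cells were thinned to 5000 UMIs, where it had too few UMIs, and when per-cell CPM were averaged. *IRF3* entered it in the first and last of these, and *TLR3* entered with a minimum of 30 UMIs or none. With 2-fold in place of 1.5-fold, *EIF2AK2* left it. None of the ratios of single genes between libraries or between quartiles changed direction, although *MAVS* was at 1.00 between quartiles with all cells. Of the 63 values of the ratio between libraries under the alternatives, 22 left the interval of the main value, and of the 72 between quartiles, 17 did. Of the 27 values of the difference in the share of cells with a UMI, 24 did, with none reversed, although that of *TLR3* was 0 when 3 UMIs were required. With every cell thinned to 5000 UMIs, the log2 ratio between libraries was 2.73 for *IFIH1* in place of 2.10 and 2.44 for *DDX58* in place of 2.06. For *TLR3* it was 0.18 in place of 0.89. Ranked on *IFI27* alone, the ratios of *IFIH1*, *DDX58*, and *DHX58* between quartiles were 4.10, 2.70, and 3.96 in place of 9.0, 4.36, and 9.03. For the highest 10% against the rest, *IFIH1* was at 4.02, *DHX58* at 5.11, and *EIF2AK2* at 1.84 in place of 3.04. In the lowest quartile against mock-treated cells, *DDX58* was higher and *TMEM173* lower also with all cells and with 20% mitochondrial UMIs or less, alternatives chosen after seeing the data, whereas *DHX58* moved from 0.876 to 1.32 and 1.55. With 20% mitochondrial UMIs or less, *IFIH1* moved there from 1.06 to 0.863 and *EIF2AK2* from 0.923 to 1.05. Depth limits *TLR3* and *DHX58*. No paired analysis was possible because each condition had 1 library.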

Other observations

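Of the 82 other pathway genes with enough UMIs in the DAC-treated cells used, 26 were at least 1.5-fold higher in the quartile with the most interferon-stimulated UMIs than in the lowest, and 0 were lower, beside 11.1% and 1.62% of all genes. *OAS1* had 7 UMIs in the lowest and 242 UMIs in the highest quartile, a ratio of 36.2 (95% confidence interval 17.3 to 91.0), and *OASL* had 18 and 573 UMIs, a ratio of 33.3 (20.9 to 56.7). The helicase *DDX60* had a ratio of 9.77 (6.56 to 15.1), and *USP18* of 8.60 (6.52 to 11.5). In mock-treated cells, 10 of 76 of the pathway genes were higher and 6 were lower, beside 6.99% and 6.64% of all genes.

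The other 56 genes were neither higher nor lower, among them *CGAS*. It was at 12.3, 8.64, 10.9, and 11 CPM from the lowest to the highest quartile of DAC-treated cells, a ratio of 0.895 (0.710 to 1.13), and was detected in 31.8% and 28.9% of the cells of the lowest and highest quartile. *IRF7* was at 40.1 CPM in the lowest DAC-treated quartile and at 105.0 CPM in the highest, and at 6.04 to 10.9 CPM in the mock-treated quartiles, so that it was above the mock-treated cells also where the interferon signature was weakest. These genes were singled out after their values were seen, and no test was made.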
